A study of Mus musculus with 12 samples.

Results

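The nuclear-encoded subunits of the mitochondrial respiratory chain were followed in mouse adipose tissue during the first 2 weeks of a high-fat diet (HFD). Members were all genes whose array symbol follows the naming of these subunits (Nduf for complex I, Sdh for complex II, Uqcr for complex III, Cox4 to Cox8 for complex IV and Atp5 for complex V), without Cox8b and Cox7a1. This gave 79 of 18193 genes with a named probe set, 35 in complex I, 4 in complex II, 8 in complex III, 15 in complex IV and 17 in complex V. A gene with several probe sets was represented by the one of highest mean signal over the 12 arrays. A filter on low signal kept 77 members. The testis isoform Cox7b2 and the complex I subunit Ndufb4 lay below it in all groups, and other probe sets matching Ndufb4 carry several symbols and were not used. The complex I subunits Ndufa11 and Ndufs6 were read only by probe sets with several symbols, so they are missing from the members.

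C57Bl/6 mice were group housed and fed chow holding 13% of calories as fat. At 6 weeks of age some were moved to HFD holding 46% of calories as fat, for 14 days or for 5 days, while others remained on chow. Total RNA of adipose tissue was hybridised to single-colour Affymetrix arrays, 4 for 14 days of HFD, 4 for 5 days of HFD and 4 for chow. The labels name no fat depot and do not say how old the chow mice were when sampled, so days on the diet and age cannot be told apart. The labels call the arrays replicates without saying that each is a separate animal, so each p measures the spread between these samples, which may be technical.

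Each complex performs one step of oxidative phosphorylation. Complex I takes electrons from NADH and complex II from succinate, a step it shares with the citrate cycle. Complex III passes them to cytochrome c, complex IV reduces oxygen with them, and complex V uses the resulting proton gradient to make ATP. White adipocytes hold fewer mitochondria than brown ones, and the co-activator PGC-1alpha with the factors NRF1, GABP and the ERR receptors is known to drive the nuclear genes of the chain. Names and complexes follow different histories in a few cases: Ndufa4 is now placed in complex IV, and Cox7a2l is a factor that joins complexes into supercomplexes. Both are counted here by their symbol.

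Promoter sequence was at hand for 64 of the 79 members, as RefSeq windows of 250 bases before to 50 after the gene start on GRCm38.p6. The windows were searched on both strands for 4 motifs, NRF1 (GCGCA, any base, then GCGC), the ETS motif bound by GABP (CCGGAAGT), the ERR site (AAGGTCA) and YY1 (AAGATGGC). The NRF1 motif was in the windows of 15 members (23.4%), against 5.19% of all 27025 genes with a window. YY1 was found in 9 members (14.1% against 3.19%), the ERR site in 8 (12.5% against 5.38%) and the ETS motif in 5 (7.81% against 4.31%). In all, 31 members held at least 1 of them. A match lying wholly before the gene start was found in 11 of the 15 members for NRF1 but in 1 of the 9 for YY1. For the ERR site it was 5 of 8, and for the ETS motif 3 of 5. A match describes the letters only. The sequences below run 5′ to 3′ on the gene's strand and end at the last base before the gene start. They are shown because complex II held NRF1 matches in both Sdha and Sdhd, with 3 matches in Sdha, because Ndufa8 and Uqcr11 belong to the genes whose 5-day arrays all lay above chow, and because Uqcr11 shows the ETS motif. Capitals mark the NRF1 match in the first 3, which in Ndufa8 reads on the opposite strand, and the ETS match in the last. Ndufa8 lies at chr2:36049339-36049378, Sdha at chr13:74350241-74350348, Sdhd at chr9:50603850-50603938 and Uqcr11 at chr10:80406822-80406897, all on the minus strand.
Ndufa8: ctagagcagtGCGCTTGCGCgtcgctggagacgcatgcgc
Sdha: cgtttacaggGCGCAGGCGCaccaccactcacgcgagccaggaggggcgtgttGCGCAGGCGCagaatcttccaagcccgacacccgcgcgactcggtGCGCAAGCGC
Sdhd: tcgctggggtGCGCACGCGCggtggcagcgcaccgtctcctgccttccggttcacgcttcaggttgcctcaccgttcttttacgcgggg
Uqcr11: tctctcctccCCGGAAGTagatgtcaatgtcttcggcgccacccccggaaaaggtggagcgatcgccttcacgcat

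Several arrays carried RNA of neighbouring tissues, and these arrays recur in the results. Of 9 epididymis and testis markers listed, 4 passed the filter by their mean over the 12 arrays. The mean of these 4 was 12.82 in 14-day array 4, 10.90 to 11.68 in 5-day arrays 1 to 3, and 7.18 to 8.50 in the others. Of the 4, 3 lay above chow and 1 below, at 5 days and at 14 days. Skeletal muscle markers (8 genes) averaged 12.92 in 5-day array 2 and 13.19 in chow array 3, against 8.48 to 9.77 elsewhere. Smooth muscle markers (6 genes) reached 13.71 in 14-day array 4, whose macrophage markers were the lowest, at 10.21 against 11.08 to 11.77. Liver markers (7 genes) averaged 12.80, 8.81, 11.54 and 8.80 in 14-day arrays 1 to 4, 9.06, 11.43, 9.34 and 13.32 in 5-day arrays 1 to 4, and 7.82, 7.72, 12.00 and 10.01 in chow arrays 1 to 4. Adipocyte markers (7 of 9 listed) were present throughout, with means of 14.32, 14.14, 14.34 and 13.84 in 14-day arrays 1 to 4, 14.18 to 14.28 in 5-day arrays and 14.09 to 14.23 in chow. Array medians of the deposited log2 signal ran from 8.09 to 8.14.

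After 5 days of HFD the respiratory chain genes lay slightly above chow as a group, by a few percent per gene. The mean of the 5-day arrays was above that of chow for 64 of 77 members, against 49.5% of all 13312 genes tested, and the median log2 difference was 0.055 against −0.0015 for all genes. With quantile-normalized arrays 52 of 77 members (67.5%, against 46.3% of all genes) lay above chow and the median was 0.032. None of the members passed the test (limma over all genes, Benjamini-Hochberg adjusted p under 0.05), where 0.0% of all genes did, and the lowest adjusted p of a member was 0.347. At an unadjusted p under 0.05, 6 members were higher and 0 lower, where the shares of all genes were 4.43% and 5.67%. With array weights 7 members were called, all higher, which is 9.09% of members against 15.1% of all genes. Leaving out the arrays numbered 4 of both HFD groups gave 4 (Ndufa1, Ndufb7, Cox4i1 and Cox6c), or 5.19% against 6.62% of all genes. The 5-day arrays kept there are those that carry epididymis markers. Comparing only the 2 groups, leaving out 14-day array 4, and epididymis markers as a covariate each gave 2, or 2.60% of members, against 1.60%, 0.924% and 3.77% of all genes. Bulk signal cannot tell more RNA per cell from more cells of a kind.

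For 20 members every 5-day array lay above every chow array, and for 0 every one lay below, where 6.49% and 4.77% of all genes did so. Members were mostly bright, and of the 880 genes at or above the lower quartile of member signal 12.8% had every 5-day array above chow. Of the 20, 11 belong to complex I (Ndufa1, Ndufa3, Ndufa8, Ndufb2, Ndufb7, Ndufb11, Ndufc1, Ndufs4, Ndufs5, Ndufs8 and Ndufv3), 0 to complex II, 1 to complex III (Uqcr11), 5 to complex IV (Cox4i1, Cox5a, Cox6a1, Cox6b1 and Cox7a2) and 3 to complex V (Atp5d, Atp5e and Atp5md). With quantile normalization the count was 8, against 5.33% of all genes. Leaving out 5-day array 3 gave 33, where 8.36% of all genes did so, and leaving out both arrays rich in skeletal muscle RNA gave 24, where 11.7% did so.

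**Figure D1:**
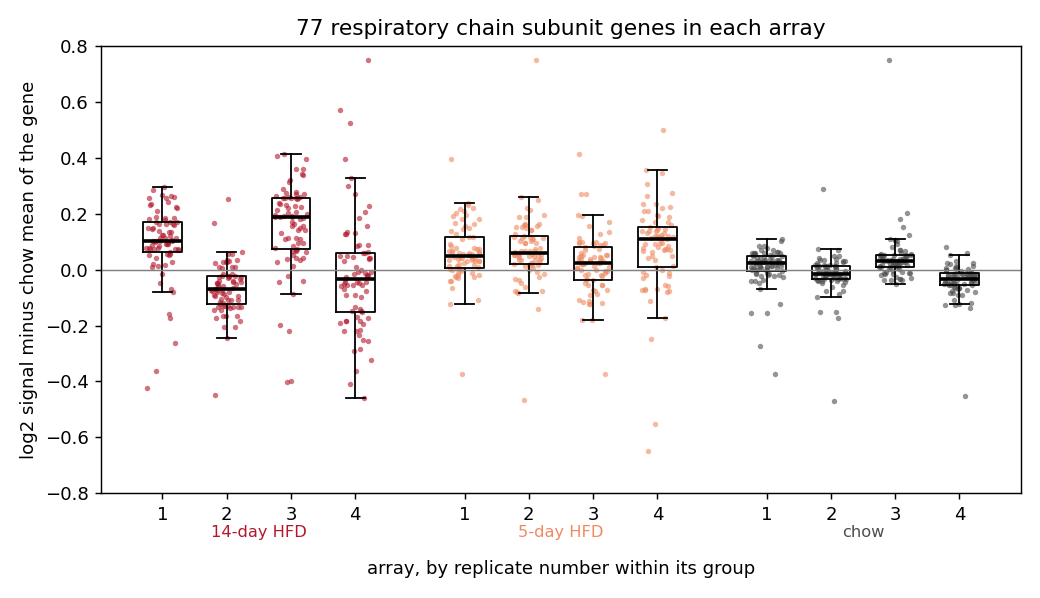
Each point is one of the 77 tested members in one array, as log2 signal minus that gene's mean in chow, with groups running from 14 days of HFD through 5 days to chow. Boxes span the quartiles with the median as a thick line, whiskers reach the farthest point within 1.5 box lengths, and 3 points beyond 0.75 are drawn at that value. The medians of the 5-day arrays lie between 0.023 and 0.109, while those of the 14-day arrays lie between −0.070 and 0.187.

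Complex I receives electrons from NADH through its peripheral arm and pumps protons through a membrane arm, where most of the accessory subunits sit. Of its 34 tested members, 30 lay above chow at 5 days, with a median log2 difference of 0.064, or 0.036 with quantile-normalized arrays. Ndufa1, a small membrane-arm subunit, stood at 14.10, 14.02, 14.14 and 14.05 log2 in the 5-day arrays, against 13.87, 13.86, 13.84 and 13.89 in chow. All 5-day values were above all chow values, a log2 difference of 0.21 ± 0.06 (SE, n = 4 each; limma adjusted p = 0.347). Ndufb7, an accessory subunit on the intermembrane side, stood at 13.08, 12.94, 13.09 and 12.94 in the 5-day arrays, against 12.66, 12.66, 12.73 and 12.66 in chow. These groups did not overlap either, and its difference of 0.33 ± 0.10 was the highest of any member (adjusted p = 0.347). In both genes the highest of the 12 values was in 14-day array 4, the array richest in epididymis and smooth muscle RNA, at 14.16 for Ndufa1 and 13.20 for Ndufb7. In 5-day array 4 epididymis markers stood at 7.18, and Ndufa1 and Ndufb7 were above every chow array. With epididymis markers as a covariate the 5-day differences were 0.14 ± 0.05 and 0.22 ± 0.09. These markers were higher in 5-day arrays 1 to 3 than in any chow array, so the covariate largely follows the groups. The part of epididymis RNA in these differences was not tested. Of the 6 core subunits tested, Ndufs7 lay below chow (−0.11) and the others above it, up to 0.11 (Ndufv1). Ndufs1, which holds iron-sulphur clusters of the peripheral arm, differed by 0.020 ± 0.144, and Ndufv1, which binds NADH, by 0.11 ± 0.10, and both overlapped chow. With the epididymis covariate Ndufv1 differed by 0.29 ± 0.06 (limma adjusted p = 0.0371) and the accessory subunit Ndufv3 by 0.24 ± 0.05 (adjusted p = 0.0319), the 2 members called under it.

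Complex II, the succinate dehydrogenase, is made wholly from nuclear genes, and its 4 members differed little from chow at 5 days, with a median of 0.0034, or −0.037 with quantile-normalized arrays. Sdha, the flavoprotein that oxidises succinate, stood at 13.23, 13.23, 13.18 and 13.22 in the 5-day arrays, against 13.30, 13.33, 13.31 and 13.23 in chow. The ranges met at their edges, and the difference was −0.080 ± 0.067 (limma adjusted p = 0.731). The iron-sulphur subunit Sdhb differed by −0.0005 ± 0.131, and the membrane anchors Sdhc and Sdhd by 0.0073 ± 0.0865 and 0.036 ± 0.095. With epididymis markers as a covariate the difference of Sdha was 0.00321. That covariate placed the median of complex II at 0.134, beside 0.134 for complex I. The difference between complexes was not tested.

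In complex III, which passes electrons from ubiquinol to cytochrome c, 7 of 8 members lay above chow at 5 days, with a median of 0.091, or 0.053 with quantile-normalized arrays. Uqcr11, the smallest subunit, stood at 12.51, 12.54, 12.54 and 12.73 in the 5-day arrays, against 12.43, 12.41, 12.41 and 12.26 in chow. The groups did not overlap, with 5-day array 4 the highest and chow array 4 the lowest, and the difference was 0.21 ± 0.09 (limma adjusted p = 0.472). Uqcrq, a small subunit on the ubiquinone side, differed by 0.22 ± 0.12, with overlapping ranges. The core proteins went apart: Uqcrc1 differed by 0.12 ± 0.10 and Uqcrc2 by −0.11 ± 0.09, each with a 95% interval that spans 0.

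Complex IV, cytochrome c oxidase, takes several of its nuclear subunits as tissue isoforms, and 11 of 14 tested members lay above chow at 5 days, with a median of 0.061, or 0.039 with quantile-normalized arrays. Cox4i1, the common form of the subunit that binds ATP as a regulator, stood at 14.14, 14.11, 14.22 and 14.07 in the 5-day arrays, against 13.95, 13.95, 13.96 and 13.94 in chow. Chow arrays lay within 0.03 of each other, all below the 5-day arrays, for a difference of 0.19 ± 0.07 (limma adjusted p = 0.390). Its highest value was 14.28 in 14-day array 4, and with epididymis markers as a covariate the 5-day difference was 0.082 ± 0.044. Cox6b1, on the intermembrane side near cytochrome c, stood at 14.12, 14.14, 14.09 and 14.22 in the 5-day arrays, against 14.05, 13.97, 13.99 and 13.98 in chow. It differed by 0.15 ± 0.06 (limma adjusted p = 0.435), and by 0.21 ± 0.05 with the same covariate. Cox4i2, the lung and hypoxia-associated form of subunit IV, differed by 0.018 ± 0.075. Cox7c was read by a dim probe set with a mean near 8 log2, and its difference of −0.049 ± 0.128 has a wide error.

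**Figure D2:**
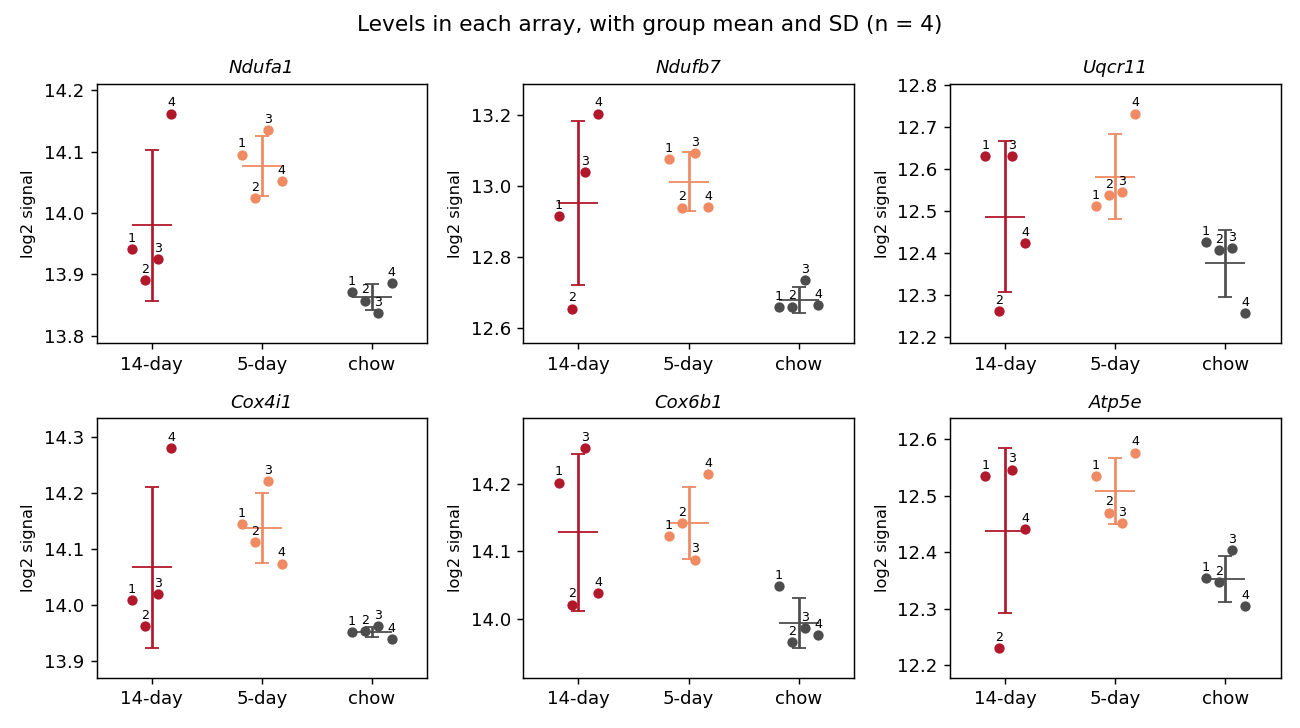
Log2 signal of 6 members in every array, with the replicate number beside each point, the group mean as a wide mark and the SD as an error bar (n = 4), for 14 days of HFD, 5 days of HFD and chow. In each panel the 5-day arrays lie above the chow arrays without overlap, and the 14-day arrays spread more widely than either. Vertical axes differ between panels and do not start at 0.

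Complex V, the ATP synthase, had 14 of 17 members above chow at 5 days, with a median of 0.051, or 0.032 with quantile-normalized arrays. Atp5e, the epsilon subunit of the central stalk, stood at 12.54, 12.47, 12.45 and 12.58 in the 5-day arrays, against 12.35, 12.35, 12.40 and 12.30 in chow. The groups did not overlap, and the difference was 0.16 ± 0.07 (limma adjusted p = 0.489). Atp5md, a small subunit that helps the synthase form dimers, differed by 0.13 ± 0.06, and Atp5d, the delta subunit of the stalk, by 0.098 ± 0.048. Atp5b, the catalytic beta subunit, differed by 0.031 ± 0.065. The 95% interval of the difference lay within ±0.5 log2 for 73 of the 77 members at 5 days, with a median distance of 0.161 from the estimate to either bound.

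After 14 days of HFD the direction over members was alike, but the arrays disagreed among themselves. The 14-day mean was above chow for 63 of 77 members (55.2% of all genes), with a median of 0.049 against 0.016 for all genes. Quantile normalization brought this to 43 of 77 (55.8%, against 51.5% of all genes) and a median of 0.012. Leaving out 14-day array 3 brought it to 38 of 77 (49.4%, against 52.4% of all genes) and −0.0004. None passed the test (0.0% of all genes), with a lowest adjusted p of 0.580 in limma. At an unadjusted p under 0.05, 5 were higher and 0 lower (3.67% and 4.3% of all genes). Ndufa1 alone had every 14-day array above every chow array and 0 members had every one below (2.37% and 2.26% of all genes). Leaving out 14-day array 2 gave 15 such members, where 8.34% of all genes did so, and leaving out 14-day array 4 gave 4, where 6.17% did so. With array weights 33 members were called, 32 higher and 1 lower, or 42.9% of members, against 22.4% of all genes. These weights were 3.54, 0.376, 1.28 and 0.106 in 14-day arrays 1 to 4, so that arrays 1 and 3 counted most.

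Relative to chow, 14-day arrays 1 and 3 were high for the members and 2 and 4 low. Array 1 lay above the chow mean for 68 of 77 members and array 3 for 69, with medians of 0.103 and 0.187. Array 2 did so for 16 and array 4 for 29, with medians of −0.070 and −0.034. Over the 880 genes of like signal the medians were 0.071, 0.0024, 0.076 and −0.151 in arrays 1 to 4, so that array 4 was low for the members by less than for those genes. Liver and adipocyte marker means were also higher in arrays 1 and 3 than in 2 and 4, and their part in the member values was not tested. Arrays 1 and 3 both stood above array 2 in 72 members, or 93.5%, against 45.5% of all genes. The median SD of a member was 0.149 across 14-day arrays, 0.057 across 5-day arrays and 0.046 across chow arrays. For all genes the median SDs were 0.160, 0.124 and 0.084. For the 880 genes of like signal they were 0.195, 0.101 and 0.064, so members were tighter than these in each group.

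**Figure D3:**
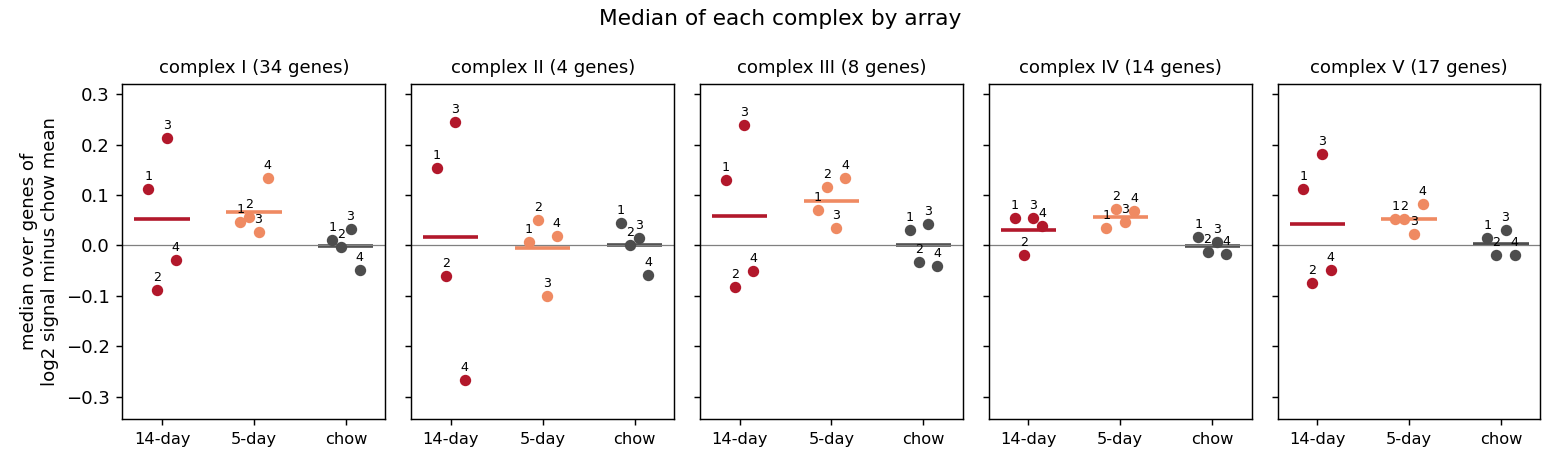
Each point is the median over one complex of log2 signal minus the chow mean of the gene, in one array named by its replicate number, and the line is the mean of the 4 points. At 14 days arrays 1 and 3 lie above arrays 2 and 4 in every complex, and complex IV stays between −0.020 and 0.055. Complex II in 14-day array 4 is the lowest point, at −0.268.

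Complex II showed the split most widely. Sdhb stood at 13.21, 12.97, 13.32 and 12.59 in 14-day arrays 1 to 4, against 13.11, 13.01, 13.11 and 12.96 in chow. All 4 complex II genes had their highest value of the 12 arrays in 14-day array 3 and their lowest in 14-day array 4. Their 14-day differences from chow were −0.082 ± 0.067 for Sdha, −0.027 ± 0.131 for Sdhb, 0.030 ± 0.086 for Sdhc and 0.033 ± 0.095 for Sdhd. In complex IV both array 1 and array 3 lay above array 2 in 10 of 14 members. This held in 33 of 34 in complex I, 8 of 8 in complex III and 17 of 17 in complex V. The complex IV exceptions were Cox4i2, Cox6b2, Cox7c and Cox7a2l. The first 3 were read by dim probe sets, with means of 8.11, 7.67 and 7.96 log2 against the filter of 7.64.

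Array 4 of the 14-day group also differed in which members were high. Its value exceeded the mean of 14-day arrays 1 to 3 for 19 of 77 members, by 0.997 log2 for Atp5g1, one of the genes for the c-ring of complex V, by 0.69 for Cox7a2l, by 0.40 for Cox6c, by 0.34 for Ndufb7, by 0.28 for Cox4i1 and by 0.24 for Ndufa1. It lay below that mean by −0.58 for Sdhb and by −0.57 for Ndufs1. Atp5g1 stood at 10.83, 10.63, 10.84 and 11.76 in 14-day arrays 1 to 4. In the 5-day arrays it stood at 11.06, 11.09, 11.07 and 10.82. Arrays 1 to 3, which carry epididymis markers, were above array 4, and with those markers as a covariate its 5-day difference was −0.22 in place of 0.13 ± 0.21. In chow it stood at 10.72, 10.95, 11.08 and 10.75. The part of smooth muscle RNA in the members was not tested.

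**Figure D4:**
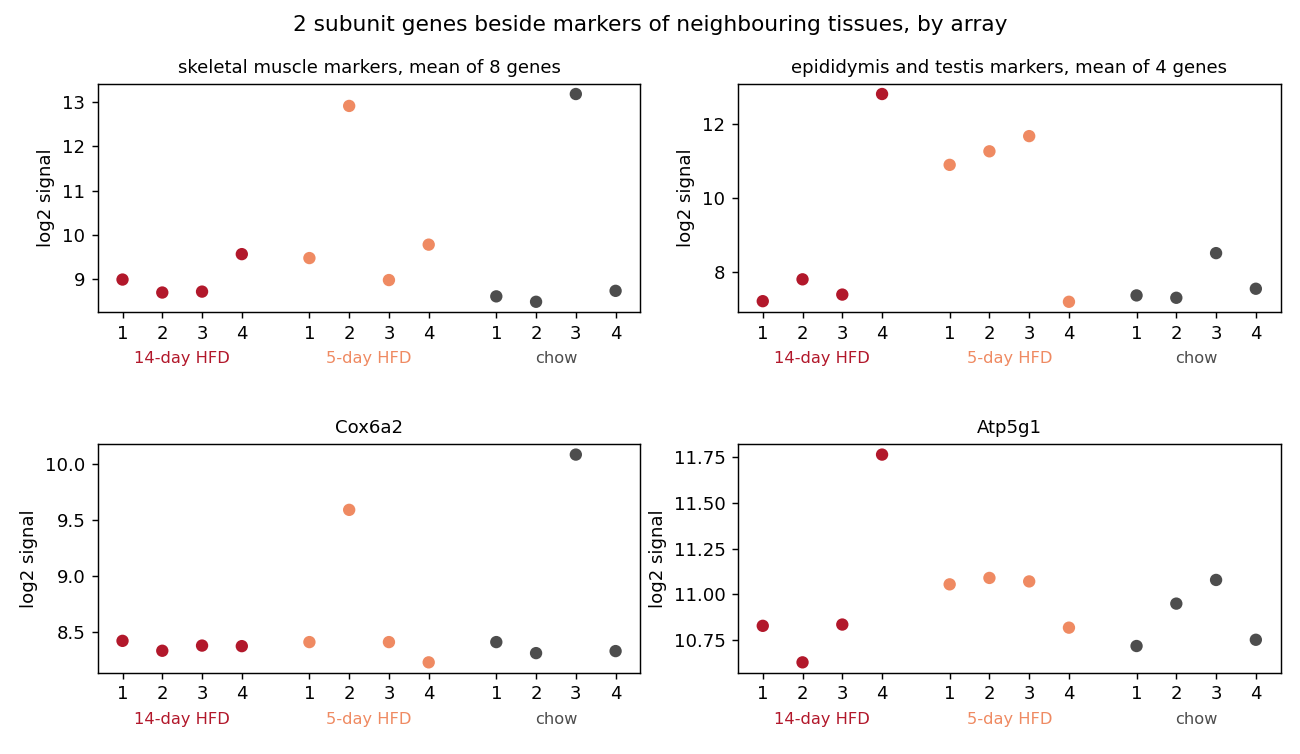
Mean log2 signal of skeletal muscle markers (left, top) and of epididymis and testis markers (right, top), with Cox6a2 and Atp5g1 below them, in each of the 12 arrays of 14 days of HFD, 5 days of HFD and chow. Cox6a2 stands out in the same 2 arrays as the muscle markers, and Atp5g1 is highest in 14-day array 4, where the epididymis markers are highest. Vertical axes do not start at 0.

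Among the largest 14-day differences, Ndufb7 stood at 12.91, 12.65, 13.04 and 13.20 in the 14-day arrays, with array 2 at the lower edge of chow. The difference was 0.27 ± 0.10 (limma adjusted p = 0.580). Atp5d differed by 0.13 ± 0.05, with 13.48, 13.33, 13.49 and 13.43 in the 14-day arrays, against 13.29, 13.28, 13.33 and 13.31 in chow. Only its array 2 reached the chow range. Ndufa1 differed by 0.12 ± 0.06, Ndufb11 by 0.12 ± 0.05 and Cox6b1 by 0.13 ± 0.06. Complex medians at 14 days were 0.058 (I), 0.0015 (II), 0.043 (III), 0.057 (IV) and 0.049 (V). With quantile normalization they were 0.017, −0.041, 0.0085, 0.031 and 0.0078. The lowest values with single arrays left out were 0.0015, −0.082, −8.3e-05, 0.030 and −0.0015. The 95% interval lay within ±0.5 log2 for 75 of 77 members.

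**Figure D5:**
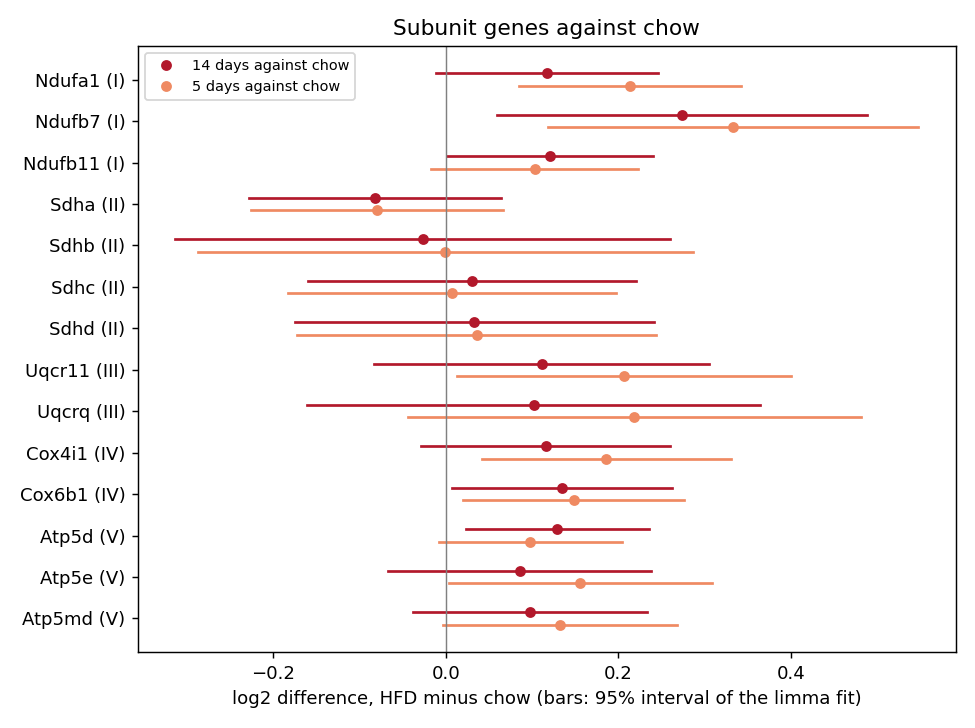
Log2 differences of 14 members from chow, with 95% intervals of the limma fit (n = 4 arrays per group), for 14 days (dark red, upper of each pair) and 5 days of HFD (orange, lower), with the complex in brackets. The 5-day values of Ndufa1, Ndufb7, Uqcr11, Cox4i1, Cox6b1 and Atp5e have intervals above 0 before adjustment, and the 4 Sdh genes lie around 0. Both comparisons use the same chow arrays.

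The 2 comparisons share the chow arrays, so their likeness carries no independent weight. Of the 77 members, 58 lay above chow at both times and 8 below at both. Set directly against each other, 14 and 5 days differed little: 29 members were higher and 48 lower at 14 days, with a median of −0.0095 against 0.012 for all genes. None passed the test (0.0% of all genes), and none reached an unadjusted p under 0.05 in limma, with 0 higher and 0 lower (1.77% and 0.789% of all genes). All 77 members had overlapping ranges, with 0 higher and 0 lower (0.646% and 0.278% of all genes). The smallest p belonged to Ndufa4l2, a hypoxia-associated relative of Ndufa4, at 8.64, 8.98, 8.91 and 8.52 at 14 days, against 9.05, 8.94, 8.74 and 9.31 at 5 days. The ranges overlapped, with a difference of −0.25 ± 0.13 (adjusted p = 0.999). Uqcrc2 differed by 0.16 ± 0.09 and Uqcrc1 by −0.15 ± 0.10 between these groups. With array weights 10 members were called, 6 higher and 4 lower, or 13.0% against 16.6% of all genes. Without the arrays numbered 4 of both HFD groups 3 were called, all lower (Ndufa1, Cox4i1 and Cox6c), or 3.90% against 5.43% of all genes. The interval lay within ±0.5 log2 for 74 members.

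The muscle and heart isoform Cox6a2 stood at 8.43, 8.34, 8.38 and 8.38 in the 14-day arrays. In the 5-day arrays it stood at 8.41, 9.59, 8.41 and 8.23, and in chow at 8.41, 8.32, 10.08 and 8.33. Its high values were in the arrays with skeletal muscle markers at 12.92 and 13.19, and its differences from chow were −0.41 ± 0.39 at 14 days and −0.12 ± 0.39 at 5 days. Without those arrays the 14-day difference was 0.026. The isoforms Cox8b and Cox7a1, known from muscle and brown fat and kept outside the member list, differed at 5 days by 0.68 ± 0.28 and 0.75 ± 0.35. Cox8b stood at 10.24, 10.64, 10.04 and 10.78 in the 5-day arrays, against 9.50, 9.50, 10.41 and 9.55 in chow. The chow array that overlapped, array 3 at 10.41, was rich in muscle RNA, and so was 5-day array 2 at 10.64. Neither Cox8b nor Cox7a1 passed the test (limma adjusted p = 0.448 and 0.508). Of 7 brown and beige adipocyte markers listed, 5 were tested, and Cox8b and Cox7a1 were the 2 above chow at 5 days. The other 3 lay below, and the median of the 5 was −0.0475.

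Genes around the chain were read from lists of the same biology. None of the tested genes of these lists passed the test in any of the 3 comparisons. Regulators of mitochondrial biogenesis lay below chow at 5 days in 16 of 17 tested genes (median −0.081), opposite to the subunits. At 14 days 10 of 17 lay below (median −0.0068). With quantile normalization 11 lay below (median −0.039), and with median-centred arrays 8 (median 0.0083). Set against 5 days, 15 of 17 were higher at 14 days (median 0.056), where 56.0% of all genes were. Ppargc1a, which encodes PGC-1alpha, stood at 8.14, 7.94, 7.79 and 8.05 in the 5-day arrays, against 8.09, 8.90, 8.72 and 8.67 in chow. Chow array 1 overlapped the 5-day arrays, and the difference was −0.62 ± 0.21 (limma adjusted p = 0.382). Its relative Ppargc1b differed by −0.36 ± 0.15, with every 5-day array below chow. At 14 days Ppargc1a stood at 7.97, 8.84, 8.08 and 7.97, with array 2 the high one, and the difference from chow was −0.38 ± 0.21. Array 2 was low for the subunits, but so was array 4, where Ppargc1a stood at 7.97 as in array 1. Esrra, the gene of ERR alpha, differed by 0.18 ± 0.07 at 14 days.

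Assembly factors lay above chow in 30 of 39 tested genes at 14 days (median 0.11) and in 27 at 5 days (median 0.060). With quantile normalization these were 29 (median 0.078) and 24 (median 0.036). Cox17, the copper chaperone of complex IV, stood at 13.06, 12.82, 13.04 and 12.89 in the 14-day arrays, and at 12.69, 12.71, 12.69 and 12.71 in chow. All 14-day values were above chow, by 0.25 ± 0.06 (limma adjusted p = 0.433). Pet100, which helps build complex IV, differed by 0.22 ± 0.08 at 5 days and 0.21 ± 0.08 at 14 days. Cytochrome c (Cycs), the carrier between complexes III and IV, differed by 0.19 ± 0.08 at 5 days and 0.20 ± 0.08 at 14 days. Electron carriers and their oxidoreductases lay above chow in 11 of 15 genes at 14 days and 10 at 5 days, the last being 8 with quantile normalization. Citrate cycle enzymes did so in 11 of 16 at 14 days and 13 at 5 days, or in 9 and 11 with quantile normalization. Of the subunits encoded in mitochondrial DNA only ND5 had a named probe set, and it differed by −0.031 ± 0.037 at 14 days and −0.027 ± 0.037 at 5 days.

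Members with more than 1 probe set above the filter can be read by each of them. Probe sets of a member were read in the same samples, so like signs are not independent support. The share over all genes with several probe sets was not computed. Of 44 such members, the probe sets had the same sign in 39 at 5 days, in 32 at 14 days and in 24 for 14 against 5 days.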

How the data were processed

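RNA of mouse adipose tissue was measured on 12 single-colour arrays, 4 per group. The authors deposited 1 table of 45098 probe sets, whose values are on the log2 scale as judged from their range (4.18 to 15.50). How probes were summarised and arrays normalized is not given in the sources used here, and nothing was renormalized for the main values. Arrays give no counts, so their number limits the precision. Of the probe sets, 34945 had 1 gene symbol in the platform annotation, 932 several, 9160 none, and 61 were controls. By Entrez ID 34741 matched RefSeq genes of GRCm38.p6, which changed 0 symbols. The 9 probe sets with several symbols that match the member names were not used.

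A gene entered the test if its mean signal reached the 40th percentile over probe sets (7.64 log2), as 13312 did. The 3 groups were fitted together in limma 3.58.1 (R 4.3.3) with a moderated variance following the mean signal. Tests were two-sided, with Benjamini-Hochberg adjustment over all 13312 genes and a threshold of 0.05, and the fit was tested on simulated data. Members, gene lists and marker lists were chosen with earlier results of these data known. Named genes were the 2 members of smallest p per complex and comparison, all of complex II, core and isoform subunits, and the 2 genes of smallest p of each other list; the text names part of these. Cox6c, Cox7a2l and the members listed as not overlapping chow or as called under an alternative are named outside this rule, chosen with their values in view. Alternatives were other scalings, filters, probe set rules, variance models, array weights, a replicate block, marker covariates and left-out arrays. Counts of non-overlapping members and of members above chow were recomputed after seeing the data.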

Additional observations from a re-analysis of the deposited data

Results flagged for a closer look

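Groups of 4 arrays were examined for named genes, member and complex medians, and marker means. Of 117 such groups, 10 held 1 array that stood apart. Its distance to the nearest of the others took up more than the 95% critical share of the group's range. Chance alone gives about 1 in 20. Of the 10, 4 were the muscle marker mean itself or muscle isoforms, in arrays rich in skeletal muscle RNA. They were the marker mean of 13.19 in chow array 3, Cox6a2 at 9.59 in 5-day array 2 and at 10.08 in chow array 3, and Cox8b at 10.41 in chow array 3. Ndufb7, at 12.73, was also highest in chow array 3. In 14-day array 4 the epididymis and testis marker mean stood apart at 12.82. Atp5g1 stood apart at 10.82 in 5-day array 4, the lowest of its group. Uqcr11 stood apart at 12.73 in 5-day array 4 and at 12.26 in chow array 4. Ppargc1a stood apart at 8.84 in 14-day array 2.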

How the results depend on the processing

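Of 84 recomputed counts of called members, 76 matched the main value, which was 0 in each comparison. Of 1129 recomputed differences of named genes, 11 changed sign. Other filters, other variance models and left-out arrays of a group outside the comparison cannot change a difference. Many named genes were also picked by smallest p in these data. The low number of sign changes was therefore partly fixed in advance and does not measure how stable the directions are. Calls appeared where arrays were weighted or left out. With array weights 33 members were called at 14 days, 7 at 5 days and 10 for 14 against 5 days, among 2981, 2015 and 2212 of all genes. With only the 2 groups compared 2 members were called at 5 days, with both HFD arrays numbered 4 left out 4 at 5 days and 3 for 14 against 5 days, and with the epididymis covariate 2 at 5 days. Of all genes, 213 were called at 5 days with only the 2 groups compared, and 881 at 5 days and 723 for 14 against 5 days with both arrays numbered 4 left out. Leaving out each array in turn gave 0 to 2 called members at 5 days, with 2 without 14-day array 4. The cause was not tested. The epididymis covariate moved the 5-day median of members to 0.110 and of complexes I, II, III, IV and V to 0.134, 0.134, 0.162, 0.042 and 0.107. For complex IV the 5-day median was 0.039 with quantile normalization, and the median for 14 against 5 days was −0.068 with array weights and −0.033 to 0.017 with single arrays left out. Members with every HFD array above every chow array at 5 days numbered 8 with quantile normalization (10.4% against 5.33% of all genes). With single arrays left out they numbered 20 to 33, where 6.79% to 11.3% of all genes did so. At 14 days they numbered 2 with quantile normalization (2.60% against 1.98% of all genes). They numbered 4 without both muscle-rich arrays (5.19% against 2.99%) and 4 without both HFD arrays numbered 4 (5.19% against 6.17%). With single arrays left out they numbered 1 to 15, where 2.99% to 8.34% of all genes did so. Members above the chow mean at 14 days numbered 38 to 68 with single arrays left out, where 51.5% to 56.8% of all genes lay above.

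Signs changed in these cases. At 5 days Sdha was 0.00321 and Atp5g1 −0.22 with the epididymis covariate, and Cox6a2 was 0.020 without both HFD arrays numbered 4 and −0.43 to 0.31 with single arrays left out. At 14 days Sdha was 0.012 with array weights, Cox6a2 was 0.026 without both muscle-rich arrays and −0.56 to 0.026 with single arrays left out, and Uqcrq was −0.0015 to 0.20 with single arrays left out. For 14 against 5 days Uqcrc1 was 0.028 and Atp5e 0.00621 with array weights. Replicate numbers did not pair the arrays: of 12 same-numbered pairs 2 had correlated deviations over 0.1 (range −0.73 to 0.41), and 1 of 12 arrays matched its own number best. The replicate block left 0 members called in each comparison.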
